A study of Mus musculus with 17 samples.

Results

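Expression of 10 genes of the Kruppel-like factor (KLF) family, Klf2, Klf3, Klf4, Klf5, Klf6, Klf7, Klf9, Klf10, Klf13 and Klf15, was examined in cultured mouse ovarian follicles. The members were taken by gene symbol from a table of 25198 genes that lists 17 KLF genes in all, and they were chosen with their differences between Tyrphostin and Control libraries and between the batches of Control libraries already known. Values of those 2 contrasts are therefore given below as a description. All 10 members were in the table, and 8 passed the filter on low counts used for the treatment comparison, which 9603 genes passed.

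The follicles were isolated from CD1 mice aged 16 days and reached the antral stage over 8 days in eIVFG, in which single follicles are cultured in a gel capsule. Treated samples, each made from triplicate follicles, were exposed for 4 h to hCG, the hormone that triggers ovulation in culture, together with 10 µM Tyrphostin AG1478 in DMSO. Tyrphostin AG1478 is an inhibitor of the EGF receptor kinase. There were 11 Control libraries (6 in batch 1 and 5 in batch 2) and 6 Tyrphostin libraries (3 in each batch). The library names put the Control libraries in 5 sets, sets 1 and 2 with 3 libraries each in batch 1 and sets 4, 5 and 6 with 2, 1 and 2 libraries in batch 2; what a set is, is not stated. The n given for Control groups counts libraries, not sets. Control and treated samples carry the same treatment text, which leaves unstated whether hCG and DMSO were also given to Control follicles. Shared animals or cultures are not stated either. The p-values below measure the spread between these libraries, which may be partly technical.

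KLF proteins are transcription factors with a C-terminal array of zinc fingers that binds GC-rich and CACCC sequences, and they differ mainly in their N-terminal parts, which recruit activators or corepressors. Several of them (Klf2, Klf4, Klf6, Klf10) are induced early after growth factor or stress signals, Klf9 and Klf15 are known targets of steroid hormone receptors, and Klf10 is a target of TGF-beta signalling. In the ovulating follicle, hormone stimulation acts on granulosa cells partly through EGF-like ligands and the EGF receptor, and KLF genes are among the transcription factor genes described in granulosa and luteal cells.

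Promoter sequences, the 250 bases before the RefSeq start in GRCm38.p6, were given for 8 of the 10 members, all but Klf5 and Klf10. The GC box, the letters GGGCGG read on either strand, was in 7 of the 8 (all but Klf9), against 32.7% of 32841 promoters. The CACCC box, the letters CACCC on either strand, was in 6 of the 8 against 52.0% of promoters. CCAAT on either strand was in 4 of the 8 (33.9% of promoters). The letters TGACG, part of the cAMP response element, were on either strand in 5 of the 8 (17.8% of promoters). The full element TGACGTCA, which holds these letters, the TATA box TATAAA, the ETS core CCGGAA and the CArG box were in 0 of the 8, against 1.55%, 12.4%, 12% and 1.47% of promoters. GC content was 59.2% (Klf7) to 78.4% (Klf3), against a median of 52.4% over all 32841 promoters. The shares of promoters above were not matched for GC content. The windows of 3 members are shown: that of Klf13, on which the batch result turns, that of Klf4, with a negative fold change and several GC boxes, and that of Klf9, with no GC box and a difference between treatments near 0. Whether GC boxes go with the treatment difference was not tested. Klf3 had 6 GC boxes and a log2 fold change of 0.00, Klf15 had 1 and 0.02, and Klf7 had 1 and -0.76. None of the shown windows overlaps an annotated exon in GENCODE M21. The windows of Klf3, Klf7, Klf2 and Klf6, also counted above, hold 250, 102, 29 and 7 bases of annotated exons. Each shown window is given 5′ to 3′ on the strand of its gene, with GC boxes in capitals.
Klf13, chr7:63938916-63939165, minus strand: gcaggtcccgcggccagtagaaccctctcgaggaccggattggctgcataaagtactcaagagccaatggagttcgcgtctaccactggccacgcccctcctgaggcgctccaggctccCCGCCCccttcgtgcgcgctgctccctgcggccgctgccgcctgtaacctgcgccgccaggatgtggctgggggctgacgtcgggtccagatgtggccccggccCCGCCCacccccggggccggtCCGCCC
Klf4, chr4:55532476-55532725, minus strand: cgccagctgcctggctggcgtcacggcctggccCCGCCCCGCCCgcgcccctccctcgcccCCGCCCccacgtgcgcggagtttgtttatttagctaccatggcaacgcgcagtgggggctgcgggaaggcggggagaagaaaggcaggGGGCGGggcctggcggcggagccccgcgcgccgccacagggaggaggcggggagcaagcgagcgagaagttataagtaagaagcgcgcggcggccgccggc
Klf9, chr19:23140976-23141225, plus strand: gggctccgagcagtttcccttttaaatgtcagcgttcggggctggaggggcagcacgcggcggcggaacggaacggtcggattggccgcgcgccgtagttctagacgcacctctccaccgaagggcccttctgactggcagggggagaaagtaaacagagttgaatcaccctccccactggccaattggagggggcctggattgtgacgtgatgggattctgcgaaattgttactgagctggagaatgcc
In the Klf13 window the 3 GC boxes begin 131, 27 and 6 bases before the start, and TGACG begins 56 bases before it. In the Klf4 window 4 GC boxes were found, the first 217 bases before the start. A match is a description of letters and says nothing of binding in these follicles.

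Library totals ran from 1820545 to 8291024 counts. A floor of 3 counts then equals 0.334 to 1.63 CPM (counts scaled to a common library size, with TMM factors). The 8 granulosa markers summed to 52170 to 80900 CPM in every library, with Amh at 0 in Control batch 1 and at most 4 counts in any library. Markers of other cells differed between batches: the 8 theca and stroma markers summed to 265 to 760 CPM in Control batch 1 and 272 to 417 CPM in Tyrphostin batch 1, against 442 to 2153 CPM in Control batch 2 and 814 to 3071 CPM in Tyrphostin batch 2. The 6 immune markers reached 461.5 CPM in Control 8 and 853 CPM in Tyrphostin 5, the 7 endothelial markers stayed between 8.51 and 89.5 CPM, and the 8 oocyte markers between 16.9 and 220.0 CPM. The share of mitochondrial transcripts was lowest in Control 7 (0.175%) and ran from 0.781% to 2.83% elsewhere.

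Levels were compared between members per length, as CPM per kb of exons. In Control libraries of batch 1, Klf6, an early response factor, was the most abundant member at 47.0 CPM per kb ± 12.1 (SD, n = 6). Klf13, Klf3 and Klf10 followed at 3.43 ± 0.673, 3.39 ± 1.06 and 3.34 ± 0.562 CPM per kb (SD, n = 6), levels that by this length did not differ beyond their spread. Klf7 was at 2.72 CPM per kb ± 0.803 (SD, n = 6). Klf4, Klf15 and Klf9 formed a lower group at 1.48 ± 0.704, 1.27 ± 0.751 and 1.22 ± 0.479 CPM per kb (SD, n = 6), again within their spread. Klf5 and Klf2 were lowest, at 0.283 ± 0.147 and 0.240 ± 0.271 CPM per kb (SD, n = 6). Klf6 was also first in the 3 other groups, at 32.6 CPM per kb ± 11.3 (SD, n = 5) in Control batch 2, 29.3 ± 6.07 (SD, n = 3) in Tyrphostin batch 1 and 24.1 ± 13.4 (SD, n = 3) in Tyrphostin batch 2. By this length Klf13 had the second highest mean in both Control batches, close to Klf3 and Klf10 in batch 1 and at 19.5 CPM per kb ± 4.33 (SD, n = 5) in batch 2. In Tyrphostin libraries Klf13 lay below Klf3 in batch 1, at 2.06 CPM per kb ± 0.323 (SD, n = 3). It stood second in Tyrphostin batch 2, at 13.2 CPM per kb ± 2.43 (SD, n = 3).

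**Figure D1:**
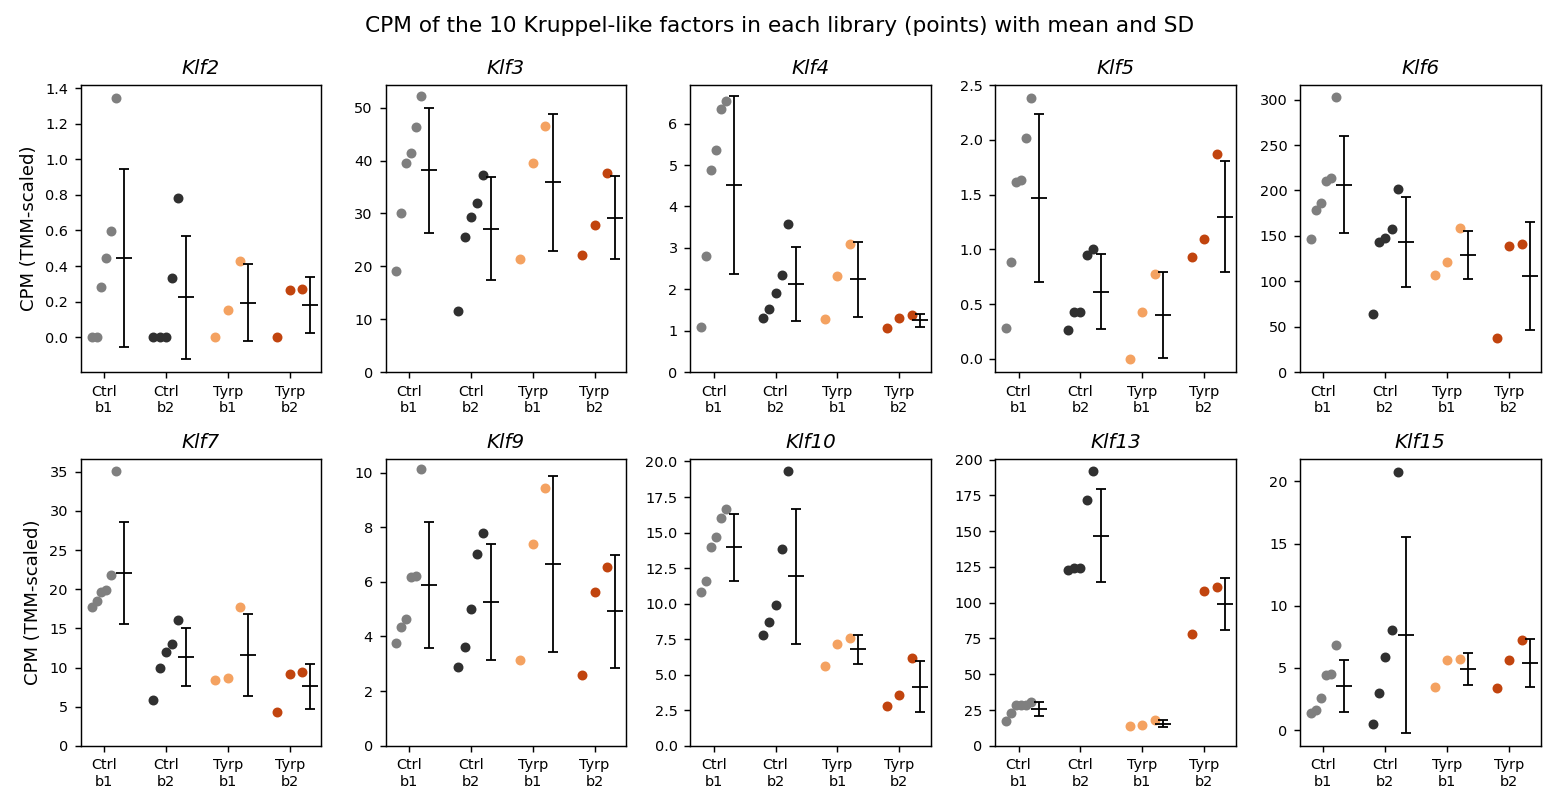
CPM of each Kruppel-like factor (linear axis, a separate scale for each gene) in Control (Ctrl) and Tyrphostin (Tyrp) libraries of batch 1 (b1) and batch 2 (b2), where points are libraries and the black mark and bar are mean and SD. Klf13 separates the batches in both treatments, Klf10 separates Tyrphostin from Control libraries, and Klf2 and Klf5 lie near the floor of detection.

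Klf2 and Klf5 were too low for a comparison. Klf2, a factor best known from endothelial cells and lymphocytes, had at most 5 counts in a library, and 23 counts over all 17. The highest value, 1.34 CPM in Control 1, came from the library with the highest sum of endothelial markers (89.5 CPM); whether those cells contribute to it was not tested. Klf5, a factor of proliferating epithelial and smooth muscle cells, had at most 9 counts in a library. In CPM, Klf5 lay at 0.281 to 2.38 (median 1.62) in Control batch 1 and at 0.262, 0.425, 0.433, 0.954 and 1.00 in Control batch 2. It lay at 0, 0.429 and 0.777 CPM in Tyrphostin batch 1 and at 0.929, 1.09 and 1.88 CPM in Tyrphostin batch 2, with overlapping ranges between treatments. A change of Klf2 or Klf5 was not detectable at this depth.

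The treatment comparison asked whether KLF transcripts had other levels in Tyrphostin than in Control libraries. Whether Control follicles also had hCG and DMSO is not stated, so the contrast may include these as well as the inhibitor. In the fit of all 17 libraries that included batch, 3 of the 8 members tested (Klf10, Klf7 and Klf13) were called, which here means an adjusted p below 0.05 by the quasi-likelihood test of edgeR, all of them lower in Tyrphostin libraries. Over all genes tested, 10.6% were called and 6.25% were called lower. Within batch 1 the call was made for 1 of 8 (Klf10; 6.73% of all genes) and within batch 2 for 0 of 7 (0.621% of all genes; Klf10 and Klf13 had an unadjusted p under 0.05). The members were chosen on this contrast, so nothing is read from these counts. The median log2 fold change of the 8 was -0.60, against 0 over all 9603 genes, and 5 of 8 were negative. Cell markers differed between treatments too. In the fit of all libraries, 3 of 6 granulosa markers tested were called higher in Tyrphostin libraries, and 0 of 8 theca and stroma markers were called. Within batch 1, 2 of these 8 were called lower and 7 were negative, while within batch 2 all 8 were positive and 0 were called. Their part in the KLF values was not tested. Because these are bulk libraries, fewer cells of a type and less RNA per cell cannot be told apart here or in any value below.

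Klf10, the TGF-beta inducible early gene product, showed the largest difference among the members in the fit of all libraries with batch; within batch 1 Klf4 was as far from 0 (-1.04 ± 0.48, SE). It lay at 10.9 to 16.7 CPM (median 14.3) in Control batch 1 and at 7.82, 8.72, 9.92, 13.9 and 19.4 CPM in Control batch 2. In Tyrphostin libraries it lay at 5.63, 7.15 and 7.58 CPM in batch 1 and at 2.79, 3.55 and 6.16 CPM in batch 2. All 6 Tyrphostin libraries were below all 11 Control libraries, a separation in this direction found in 1 of the 8 members and in 1.00% of all genes tested. The log2 fold change was -1.25 ± 0.23 (SE), with -1.02 ± 0.27 (SE) within batch 1 and -1.52 ± 0.40 (SE) within batch 2.

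Klf7, a factor known from neuronal and fat cell differentiation, was at 17.7 to 35.1 CPM (median 19.8) in Control batch 1 and at 5.91, 9.94, 11.9, 13.0 and 16.0 CPM in Control batch 2. It was at 8.44, 8.66 and 17.7 CPM in Tyrphostin batch 1 and at 4.27, 9.11 and 9.42 CPM in Tyrphostin batch 2. Within batch 1 the Tyrphostin libraries lay below every Control library, as in 2 of 8 members (Klf7 and Klf10) and 6.45% of all genes, and within batch 2 the ranges overlapped. For Klf7 this separation in batch 1 was close to a tie, with 17.67 CPM in Tyrphostin 3 and 17.69 CPM in Control 5. The log2 fold change was -0.76 ± 0.24 (SE) over all libraries, -0.93 ± 0.31 (SE) within batch 1 and -0.56 ± 0.37 (SE) within batch 2. Klf7 kept its call in 9 of 25 other fits and lost it, among others, without Tyrphostin 1 (-0.65), without Tyrphostin 6 (-0.66) and without Control 3 (-0.66). An antisense RNA gene, Gm26649, shares 3196 exonic bases with Klf7, and whether the counting used strand is not given in the sources used here.

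Klf13, a factor described as an activator and repressor in lymphocytes and heart, differed far more between batches than between treatments. It lay at 16.98 to 30.3 CPM (median 28.3) in Control batch 1 against 14.0, 14.2 and 18.3 CPM in Tyrphostin batch 1, where 1 Tyrphostin library fell within the Control range. In batch 2 it lay at 123, 124, 124, 172 and 192 CPM in Control and at 78.1, 108.5 and 110.9 CPM in Tyrphostin libraries, with no overlap, as in 2 of 7 members (Klf10 and Klf13) and 4.92% of all genes. The log2 fold change was -0.65 ± 0.16 (SE) over all libraries, -0.73 ± 0.25 (SE) within batch 1 and -0.56 ± 0.25 (SE) within batch 2. Without the batch term the value was -0.50 ± 0.64 (SE) and the call was lost.

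Klf4 and Klf6, both early response factors, had negative log2 fold changes that did not pass the threshold. Klf4 lay at 1.09 to 6.55 CPM (median 5.12) in Control batch 1 and at 1.30, 1.53, 1.91, 2.35 and 3.57 CPM in Control batch 2. It lay at 1.29, 2.33 and 3.10 CPM in Tyrphostin batch 1 and at 1.07, 1.30 and 1.37 CPM in Tyrphostin batch 2, so the ranges overlapped in both batches. Its counts per library ran from 2 to 32, and its log2 fold change was -0.94 ± 0.34 (SE). Klf6 lay at 146.5 to 303 CPM (median 198) in Control batch 1 and at 64.1, 143, 148, 158 and 202 CPM in Control batch 2. It lay at 107, 121 and 158 CPM in Tyrphostin batch 1 and at 37.7, 139 and 141 CPM in Tyrphostin batch 2, with overlapping ranges in both batches. Tyrphostin 6 had the lowest Klf6 value of all 17 libraries, and the log2 fold change of -0.56 ± 0.25 (SE) was -0.39 without it.

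Klf3, Klf9 and Klf15 had overlapping ranges in the 2 treatments and differences near 0 in the fit of all libraries. Klf3, a repressor that works through the corepressor CtBP, lay at 11.5 to 52.3 CPM (median 32.0) in the 11 Control libraries and at 21.5 to 46.6 CPM (median 32.8) in the 6 Tyrphostin libraries. The difference was 0.00 ± 0.23 (SE) on the log2 scale. The Control range of Klf9 was 2.88 to 10.1 CPM (median 5.02) and its Tyrphostin range 2.60 to 9.44 CPM (median 6.09), and the log2 fold change was 0.06 ± 0.29 (SE). Klf15, known for its part in glucose and amino acid metabolism, spread from 0.523 CPM in Control 7 to 20.8 CPM in Control 9 and lay between 3.41 and 7.25 CPM in Tyrphostin libraries, with a difference of 0.02 ± 0.45 (SE) on the log2 scale. Within batch 1 the Klf15 difference was 0.44 ± 0.44 (SE), and within batch 2 it was -0.41 ± 0.77 (SE). The coefficient of variation of Klf15 was 104% over Control libraries and 28.8% over Tyrphostin libraries. The sign of Klf3, Klf9 and Klf15 changed in 12, 5 and 10 of 25 other fits.

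**Figure D2:**
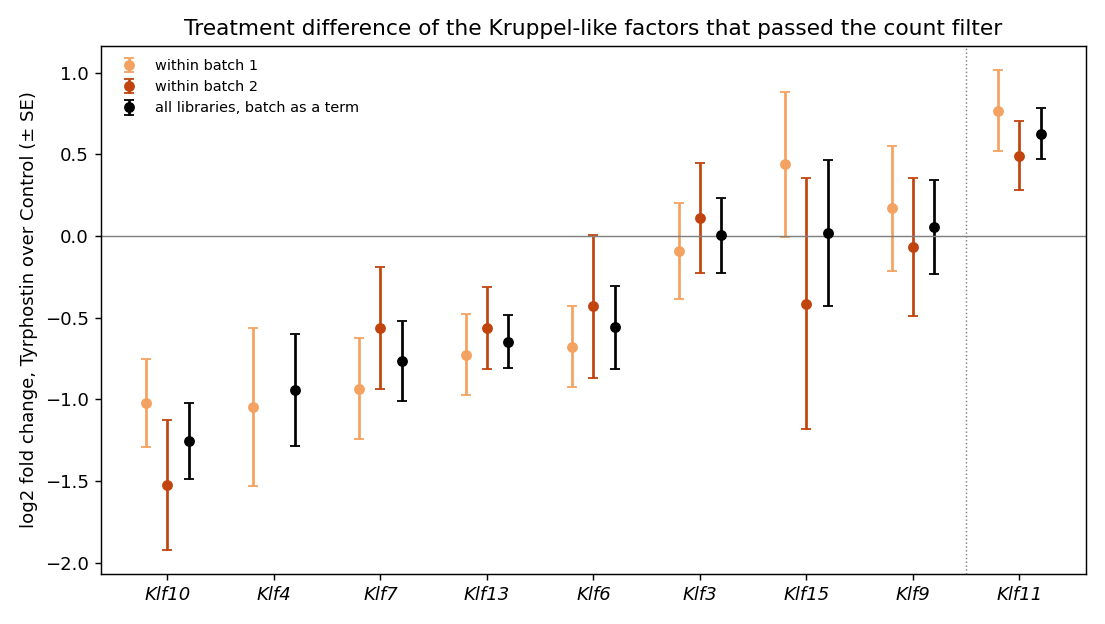
Log2 fold change (Tyrphostin over Control, ± SE) of the members that passed the filter, within batch 1, within batch 2 and over all 17 libraries in a fit that included batch; Klf11, right of the dotted line, is a KLF gene outside the 10. Klf10, Klf7, Klf13 and Klf6 are below 0 in all 3 fits and Klf11 is above 0, while Klf3 and Klf9 lie around 0. Klf15 is above 0 within batch 1, below 0 within batch 2 and near 0 over all libraries. Klf4 did not pass the filter in batch 2.

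The batches were compared next, first in Control libraries, where the contrast had served to choose the members, and then in the 6 Tyrphostin libraries, which that contrast did not use. Between Control batches 2 of the 6 members tested were called, Klf13 higher and Klf7 lower in batch 2, against 14.0% of 6680 genes. Klf13 averaged 25.8 CPM ± 5.07 (SD, n = 6) in Control batch 1 and 147 CPM ± 32.6 (SD, n = 5) in Control batch 2. The log2 difference was 2.53 ± 0.20 (SE), and every library of batch 2 lay above every library of batch 1 (3.98% of all genes). In the Tyrphostin libraries Klf13 was again higher in batch 2, with 15.5 CPM ± 2.43 (SD, n = 3) in batch 1 and 99.2 CPM ± 18.3 (SD, n = 3) in batch 2. There the log2 difference was 2.67 ± 0.28 (SE; edgeR adjusted p = 0.00148), a 6.35-fold higher level, in 3 of 3 libraries above all of batch 1, a separation that 13.2% of all genes show with 3 against 3. Klf13 had the lowest p of the 9918 genes in this test. It was the 1 member called of 7 tested, where 3.96% of all genes were called and 2.08% were called higher. Batch differences were widely shared by the 2 treatments. Of 936 genes called between Control batches and tested here, 897 had the same sign and 202 were also called with that sign. The adjusted p of Klf13 stayed at or under 0.0154 in each of 12 other fits, 6 of which left out a library. These fits were run in edgeR, DESeq2 and limma-voom.

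**Figure D3:**
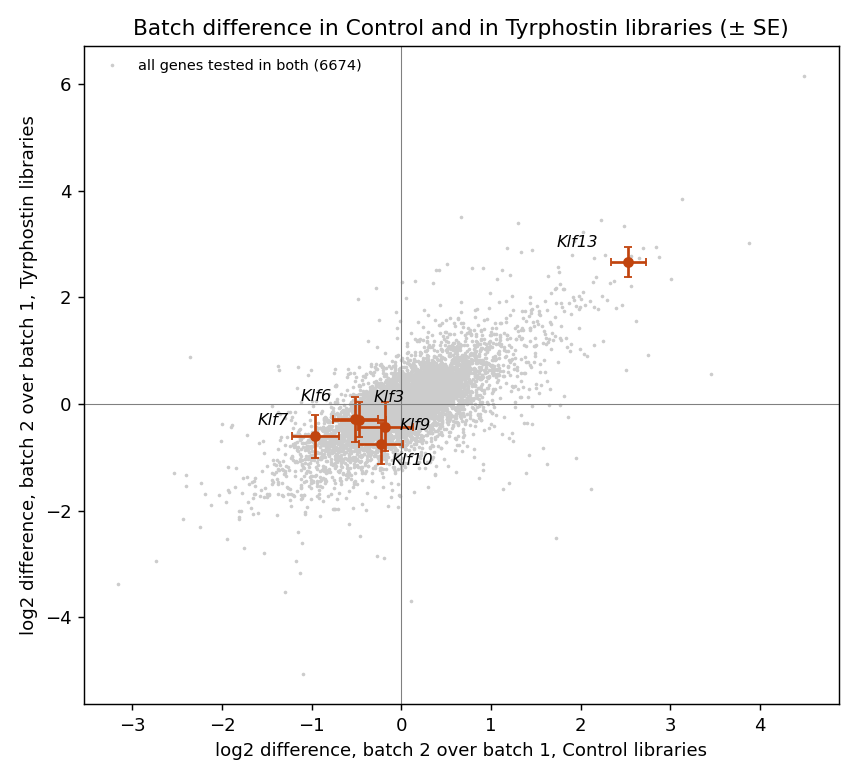
Log2 difference between batch 2 and batch 1 in Control libraries (x axis) and in Tyrphostin libraries (y axis) for the members tested in both (orange, ± SE) and all 6674 genes tested in both (grey). Klf13 lies at 2.53 and 2.67, and Klf3, Klf6, Klf7, Klf9 and Klf10 lie below 0 on both axes.

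Markers of theca and stroma moved with the batches too: 5 of the 8 were called higher in batch 2 among Tyrphostin libraries and 3 higher and 1 lower among Control libraries. Over all genes, 2.08% were called higher between Tyrphostin batches and 14.0% were called in either direction between Control batches. Immune marker sums were 17.9 to 61.8 CPM in Control batch 1, 54.0 to 461.5 in Control batch 2, 19.4 to 53.7 in Tyrphostin batch 1 and 44.0 to 853 in Tyrphostin batch 2. Oocyte marker sums were 16.9 to 45.8, 24.7 to 83.2, 19.2 to 35.9 and 38.8 to 220.0 CPM in the same order, and endothelial sums were 12.4 to 89.5, 8.51 to 22.6, 18.6 to 33.9 and 8.73 to 16.9 CPM. The part of these cells in the Klf13 level was not tested. In the RefSeq gene order, 1 of the 8 protein-coding neighbours of Klf13 (4 on each side) was among the genes tested. That neighbour, Mtmr10, had log2 differences between batches of -0.30 ± 0.26 (SE) in Control and -0.03 ± 0.33 (SE) in Tyrphostin libraries. The longest Klf13 transcript has 55.5% GC, and no exon of another annotated gene overlaps its exons. What else differed between the batches is not given in the labels and cannot be told apart from batch.

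Klf7 was lower in Control batch 2 by 0.96 ± 0.26 (SE) on the log2 scale, with all 5 libraries of batch 2 below all 6 of batch 1 (4.78% of all genes). With Control libraries summed by set the difference was -0.88 ± 0.30 (SE) and the call of Klf7 was lost, while Klf13 kept its call at 2.42 ± 0.26 (SE). In Tyrphostin libraries the log2 difference of Klf7 was -0.61 ± 0.40 (SE; edgeR adjusted p = 0.443), which did not pass the threshold, and 1 of 3 libraries of batch 2 lay below all of batch 1. Klf10 had -0.23 ± 0.25 (SE) in Control libraries and -0.74 ± 0.39 (SE; edgeR adjusted p = 0.322) in Tyrphostin libraries. Klf3, Klf6 and Klf9 lay between -0.42 and -0.29 in Tyrphostin libraries, and Klf15 at 0.13 ± 0.41 (SE), with edgeR adjusted p-values of 0.666 to 0.900. The interaction of treatment and batch called 0 of 9603 genes in edgeR at an adjusted p under 0.05, with 342 genes (3.56%) at an unadjusted p under 0.05. For Klf13 this interaction was 0.17 ± 0.32 (SE) on the log2 scale, and over the 8 members it ran from -0.84 (Klf15) to 0.38 (Klf7).

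The make-up of the family differed between batches, mainly in Klf13. Shares of a total are tied, so a larger share of Klf13 lowers the shares of the other genes. The Klf6 level itself was not called between batches, with log2 differences of -0.51 ± 0.25 (SE) in Control and -0.29 ± 0.42 (SE) in Tyrphostin libraries. Klf6 held 59.1% ± 5.91 (SD, n = 6) and Klf13 7.65% ± 2.04 (SD, n = 6) of the counts of all 17 KLF genes in Control batch 1. In Control batch 2 Klf6 held 36.2% ± 7.90 (SD, n = 5) and Klf13 38.4% ± 5.61 (SD, n = 5). Tyrphostin libraries had the same ordering, with Klf13 at 6.57% ± 1.88 (SD, n = 3) in batch 1 and 35.0% ± 5.66 (SD, n = 3) in batch 2. The 17 genes together summed to 363 CPM ± 65.2 (SD, n = 11) for Control and to 267 CPM ± 67.3 (SD, n = 6) for Tyrphostin.

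**Figure D4:**
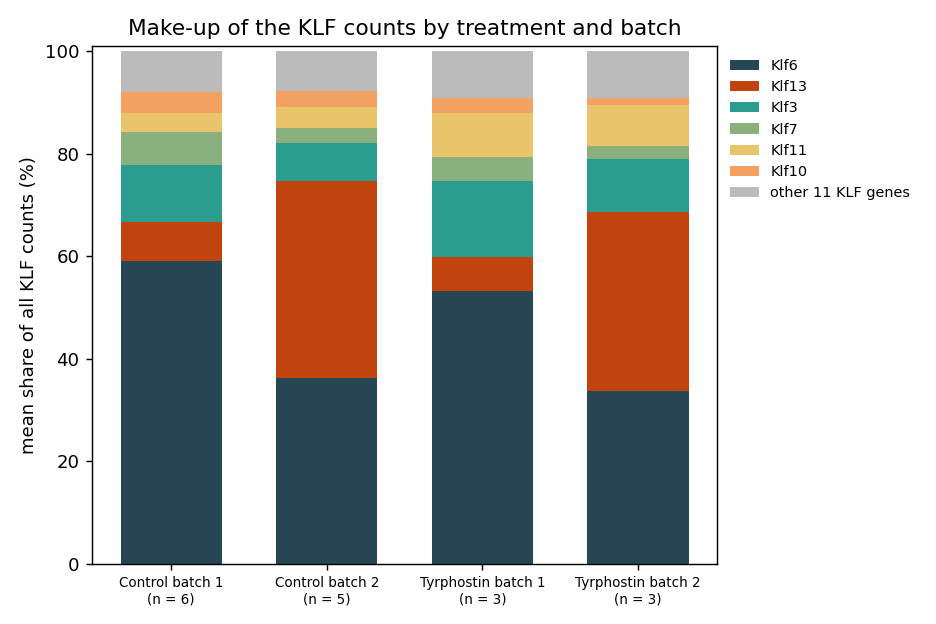
Mean share (%) of each gene in the counts of all 17 KLF genes, by treatment and batch, with n libraries each and the SD of the main shares given in the text. Klf13 makes 7.65% and 6.57% of KLF counts in batch 1 and 38.4% and 35.0% in batch 2.

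Of the 7 KLF genes outside the 10, Klf11, Klf16 and Klf17 were tested and 1 was called between treatments, against 10.6% of all genes. The genes of this paragraph were listed with earlier results of these data known, so their p-values are given as a description. Klf11, a close relative of Klf10 and likewise a TGF-beta inducible repressor, rose in Tyrphostin libraries. It lay at 8.09 to 17.4 CPM (median 14.3) in Control and at 18.6 to 23.9 CPM (median 21.0) in Tyrphostin libraries, with no overlap (0.510% of all genes, higher). Its log2 fold change was 0.63 ± 0.16 (SE; edgeR adjusted p = 0.0103), opposite in sign to that of Klf10, and all 6 Tyrphostin libraries were above every Control library. Klf16 and Klf17 had -0.15 ± 0.26 and -0.17 ± 0.37 (SE). Klf1, Klf8, Klf12 and Klf14 did not pass the filter and reached 2, 18, 6 and 4 counts in their highest library. Of the 9 SP factors, relatives that bind the same GC boxes, Sp1, Sp2, Sp3 and Sp4 were tested and 0 were called in edgeR (0 at an unadjusted p under 0.05), with log2 fold changes from -0.42 to -0.10.

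Partners and regulators of KLF proteins were mostly not called between treatments, where 10.6% of all genes were called. These genes too were listed with earlier results of these data known, so the p-values in this paragraph are given as a description. None of 15 cofactors and ubiquitin ligases tested was called in edgeR (2, Ep300 and Fbxw7, had an unadjusted p under 0.05), with a median log2 fold change of -0.07. Between Control batches 2 of 11 were called, against 14.0% of all genes. They were the acetyltransferase genes Crebbp (0.81 ± 0.21, SE, edgeR adjusted p = 0.0159) and Ep300 (-0.76 ± 0.22, SE, edgeR adjusted p = 0.0285), in opposite directions. Of 6 genes of the ERK5 and MEF2 axis, which drives Klf2 and Klf4 in endothelium, Map3k2 fell in Tyrphostin libraries (-0.96 ± 0.31, SE; edgeR adjusted p = 0.0482). Its mean was 9.69 CPM ± 4.05 (SD, n = 11) among Control libraries against 4.99 CPM ± 2.17 (SD, n = 6) under Tyrphostin, with overlapping ranges. Between batches of Tyrphostin libraries 1 of 7 genes of this axis was called, against 3.96% of all genes. It was Mef2d (-1.44 ± 0.32, SE, edgeR adjusted p = 0.0265). Of 7 hormone receptor genes, the progesterone receptor gene Pgr fell under Tyrphostin (log2 -1.17 ± 0.30, SE; edgeR adjusted p = 0.0141), with means of 1988 CPM in Control and 846 CPM in treated libraries. Pgr was also lower in Control batch 2 than in Control batch 1 (-1.43 ± 0.34, SE; edgeR adjusted p = 0.0121). Of 5 genes of SRF and its partners, 0 were called between treatments in edgeR (1, Elk3, had an unadjusted p under 0.05), and Mrtfa was lower in Control batch 2 (-0.82 ± 0.22, SE; edgeR adjusted p = 0.0209). The batch calls of this paragraph were not repeated in the other treatment. Between Tyrphostin batches 0 of 15 cofactors and ligases, 0 of 8 hormone receptor genes and 0 of 5 SRF genes were called. Between Control batches 0 of 5 ERK5 and MEF2 genes were called.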

How the data were processed

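Per the labels' protocols, follicle RNA was captured with SPRI beads and amplified with Smart-Seq2, which reads along whole transcripts and adds no molecular identifiers. The authors deposited 1 table of raw counts per gene symbol, for 25198 genes and 17 libraries. The submitters' processing notes name STAR, HTSeq and GRCm38; versions, annotation and strand setting are not given in the sources used here. Each column was assigned to its sample through the labels.

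The members and lists were chosen with earlier results of these data known. The tests used edgeR 4.0.16 (R 4.3.3) on the deposited counts (filterByExpr, TMM, robust glmQLFit, quasi-likelihood F test, Benjamini-Hochberg adjustment over all genes tested, threshold 0.05). The SE is the size of the log2 fold change divided by the square root of F. All members were named, and from each list the called genes, at most the 4 of largest change. The code was tested on simulated counts. Exon lengths and GC came from GENCODE M21, and promoters from RefSeq GRCm38.p6. Alternatives were DESeq2 1.42.0, voom in limma 3.58.1, scaling by RLE or by total counts, no filter, other covariates, Control libraries summed by set, and omission of each library. No library was taken as a copy of another: in the 31 pairs within a treatment and batch, chi-square over its degrees of freedom was 11.8 or more. PCR copies are not independent molecules, so floors cover counting error only.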

Additional observations from a re-analysis of the deposited data

Results flagged for a closer look

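Among 30 groups of 5 or 6 libraries searched (10 members in Control batch 1, Control batch 2 and Tyrphostin), 1 had a library far from the others; chance gives about 1 in 20. Klf7 reached 35.1 CPM in Control 3, where the rest of Control batch 1 lay at 17.7 to 21.8 CPM. With Control 3 left out, the Klf7 log2 fold change between treatments was -0.66 in place of -0.76, and that between Control batches was -0.77 in place of -0.96, so both calls of Klf7 were lost.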

How the results depend on the processing

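Between treatments, 1018 genes and 3 members were called. Without the batch term there were 619 genes and 1 member (Klf10), and leaving out a library gave 708 to 1314 genes and 2 to 3 members; DESeq2 called 4 members (Klf4 added). Klf10 kept its call in 24 of 25 other fits, Klf13 in 23, Klf11 in 24 and Klf7 in 9; Klf4 passed in 2 and Klf6 in 0. With total counts in place of TMM, the share of calls that were higher moved from 41.1% to 64.4% between treatments, from 43.7% to 63.5% within batch 1, from 31.1% to 47.3% within batch 2, from 51.8% to 75.7% between Control batches and from 52.4% to 68.4% between Tyrphostin batches. The median of all genes moved to 0.15, 0.18, 0.11, 0.21 and 0.15 in the same order. Klf4, Klf6, Klf7, Klf10 and Klf13 kept their signs between treatments under it. Within batch 1 omissions gave 394 (without Tyrphostin 2) to 687 genes in place of 634, and within batch 2 they gave 11 (without Tyrphostin 6) to 221 (without Control 7) in place of 61, each of the 8 omissions moving it by over 1.5 times.

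Between Control batches 937 genes and 2 members were called; DESeq2 gave 1473 genes, and Control libraries summed by set gave 100 genes and 1 member (Klf13), with fewer samples. Omissions gave 637 to 1025 genes and 1 to 2 members. Between Tyrphostin batches 393 genes were called, against 697 in DESeq2, 872 with no filter and 130 to 452 with a library left out (219 without Tyrphostin 1, 209 without 3, 196 without 4 and 130 without 5); 1 member, Klf13, was called in each of these fits. In that comparison leaving out a library turned the sign of 3 uncalled genes: Klf15 ranged from -0.18 (without Tyrphostin 6) to 0.39 and was -0.088 without Tyrphostin 1, Klf11 ranged from -0.010 (without Tyrphostin 1) to 0.17, and Klf6 from -0.54 to 0.095 (without Tyrphostin 6). Where no cause is named, the cause was not tested.

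Control 1 to 6 and Tyrphostin 1 to 6 share numbers, but deviations of same-numbered libraries correlated with r from 0.04 to 0.35, not all over 0.1, and numbers 4 to 6 cross batches, so the numbers were not taken as pairs. With the number as a replicate block there were 624 genes and 1 member (Klf7) called, with -1.003 for Klf10, -1.18 for Klf7, -1.35 for Klf4 and -0.53 for Klf13. That fit kept only Control 1 to 6 and Tyrphostin 1 to 6, so it held no Control library of batch 2. With batch as a term, its treatment values rest on numbers 1 to 3, so they are not an effect of pairing alone.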
